A study of Mus musculus with 12 samples.

Results

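The comparison described here is between cochleae of Dusp1 knockout and wild-type mice at 32 weeks of age, the older of the ages in the series (8 months on the labels). It was chosen by label: all libraries of that age were taken, which gives 6 of the 12 libraries, 3 WT (labelled F1, F10 and F12) and 3 KO (labelled F5, F6 and F27). WT were Dusp1+/+ and KO were Dusp1-/- mice, both on the mixed background 129S2/SvPas:C57BL/6, both untreated, and no tissue-restricted driver of the deletion is named. Polyadenylated RNA of the whole cochlea was sequenced in strand-specific libraries, and 16275 of the 23951 genes in the table had enough signal to be tested. Values are FPKM, fragments scaled to transcript length and library size, and differences are KO minus WT on the scale log2(FPKM + 0.5), each with its standard error from limma. Each code was taken as 1 animal, which no label states, and no label says how animals were allotted, so p-values measure the spread between these libraries. Whether a lower level of a cell type's genes in bulk cochlea means fewer such cells or less RNA in each cannot be told apart.

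DUSP1 is a nuclear phosphatase that removes phosphate from the MAP kinases p38, JNK and ERK and so ends their signal. It is an early response gene, induced by stress, growth factors and glucocorticoids. The cochlea holds the sensory hair cells and supporting cells of the organ of Corti, the spiral ganglion neurons that carry their signal to the brain, the stria vascularis that makes endolymph, and a bony shell with marrow and vessels, and all of these enter a whole-cochlea library.

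The libraries were close to each other in the measures that FPKM leave. FPKM added up to 538373 to 583071 a library, and the 10 most abundant genes held 9.13 to 10.6% of that. Among genes of low level, the most common ratio of a library's value to that in F1 lay between 0.927 and 1.22. How many reads each library held is not known, so depth is unknown. Coch, the most abundant protein of the spiral limbus and ligament, lay between 1888 and 2983 FPKM and the fibrocyte gene Otos between 1527 and 2763 FPKM, so the labelled tissue was there in all 6. Xist was read at 34.9 to 49.4 FPKM in F1, F6 and F27 and at most 0.0935 FPKM in the others, so 1 of 3 WT and 2 of 3 KO animals were female by this gene. The main fit did not include sex, and an alternative fit took the Xist level as a covariate. F5 (KO) and F12 (WT) stood apart by marrow genes, with a summed level of 31 neutrophil genes of 17820 FPKM in F5 and 5015 FPKM in F12, against 889.8 FPKM in the lowest WT and 1165 FPKM in the lowest KO library.

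The targeted gene was not lower in the libraries labelled KO. Dusp1 (chr17:26642536-26645417, mm9, minus strand) was at 43.0, 38.3 and 38.6 FPKM in F1, F10 and F12 and at 55.6, 73.7 and 57.1 FPKM in F5, F6 and F27. Every KO-labelled library lay above every WT library. The means were 40.0 ± 2.66 FPKM in WT and 62.1 ± 10.1 FPKM in KO (SD, n = 3 each), the difference was 0.62 ± 0.23, and it did not pass the correction over all genes (limma adjusted p = 0.940). An exact two-sided permutation test gave p = 0.1, the smallest that 3 against 3 libraries allow. A value per gene does not show which exons were read, so a disrupted transcript cannot be told apart from an intact one, crossed labels were not tested for, and each direction given here rests on the label alone.

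**Figure D1:**
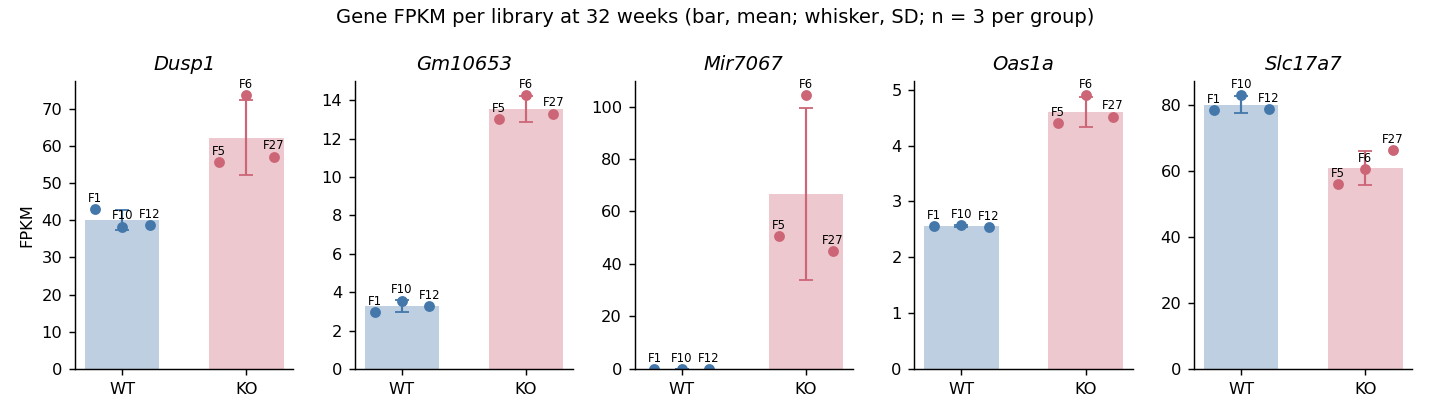
Level of 5 genes in the 6 libraries at 32 weeks, with FPKM on the vertical axis from 0, bars at the group mean, whiskers of 1 SD (n = 3) and points named by library. Dusp1, Gm10653, Mir7067 and Oas1a were higher in each library labelled KO than in each WT library, and Slc17a7 was lower, with 55.9 to 66.2 FPKM against 78.4 to 83.0 FPKM.

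Of the 16275 genes tested, 2 passed the correction at an adjusted p under 0.05, which is 0.0123% of them, and both rose in KO. They are the microRNA gene Mir7067 and the gene model Gm10653. The mature sequences of Mir7067 are shown with those of Mir8116, the single gene whose genotype difference changed with age, because both are short microRNA genes. Sequences are from RefSeq (GRCm38.p6), 5′ to 3′, and capitals mark the seed, bases 2 to 8, by which a microRNA pairs with its targets.
mmu-miR-7067-5p: uGCAGGGGgugguugcacacgga
mmu-miR-7067-3p: uGAUUGCUucccuccccacag
mmu-miR-8116: aAGGAUCCggggcuaguuggc
None of the 3 shares its seed with another of them. The libraries were made from polyadenylated RNA, so the FPKM of these genes count longer transcripts over the microRNA's place and do not measure the mature microRNA.

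Mir7067 (chr8:73419407-73419469, mm9, minus strand, 63 bases) was listed at 0 FPKM in F1, F10 and F12 and at 50.7, 104.5 and 44.8 FPKM in F5, F6 and F27. The groups did not overlap, and the 20-week libraries had the same split, with 0 FPKM in all 3 WT and 47.2 to 100.3 FPKM in the KO libraries. The difference passed the test (limma adjusted p = 1.29e-05), but against a group listed at 0 it gives no fold.

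Gm10653 (chr9:62689284-62709831, mm9, minus strand) was at 2.95, 3.56 and 3.29 FPKM in WT and at 13.0, 14.3 and 13.3 FPKM in KO. The KO libraries lay about 4-fold above WT with little spread inside either group (mean ratio 4.14, difference 1.90 ± 0.11, limma adjusted p = 8.14e-05). At 20 weeks Gm10653 was at 2.75 to 3.30 FPKM in WT and 9.70 to 13.1 FPKM in KO. It overlaps Cln6, a gene of lysosomal function, and Calml4 on the opposite strand, and shares 181 exon bases with Cln6. Neither of these differed by more than its error, with 0.07 ± 0.082 (adjusted p = 0.983) for Cln6 and 0.02 ± 0.17 (adjusted p = 1) for Calml4.

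Below that threshold, 842 genes had an unadjusted limma p under 0.05, against the 814 that this threshold gives by itself over 16275 genes. Of these, 359 were higher in KO (2.21% of genes tested) and 483 were lower (2.97%), with medians of 0.28 and -0.28. KO and WT values did not overlap for 668 genes that were higher (4.1%) and for 1006 that were lower (6.18%). These shares are the background for the counts that follow, in which "higher" and "lower" stand for an unadjusted limma p under 0.05, none passed the correction, and the adjusted p printed beside a gene is that of limma over all genes. Over all genes the median difference was -0.004, the median size of a difference 0.0953 and the median standard error 0.1255. The count of higher genes was 219 without F6 and that of lower genes 737 without F27, and without both F5 and F12 there were 409 higher and 296 lower.

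**Figure D2:**
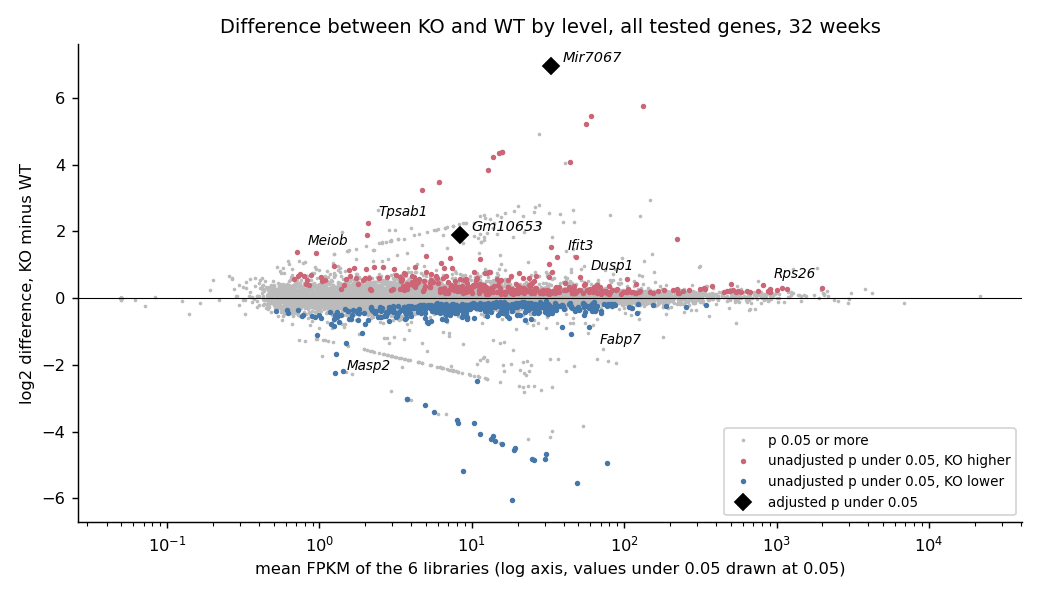
Difference KO minus WT (log2 scale, vertical axis) against the mean FPKM of the 6 libraries (logarithmic horizontal axis) for all 16275 genes, with genes at an unadjusted p under 0.05 in colour and the 2 called genes as diamonds. Among genes at 100 FPKM or more, 5.63% were higher and 0.979% lower, whereas at 1 to 10 FPKM 1.7% were higher and 3.32% lower.

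The 15 lower genes with the smallest p, taken among those whose groups did not overlap, are given here by gene, with adjusted p of 0.377 or more for each. Slc6a17, a transporter of neutral amino acids into synaptic vesicles, was at 29.5, 33.0 and 32.6 FPKM in WT and at 23.7, 23.3 and 23.9 FPKM in KO (-0.41 ± 0.0746, adjusted p = 0.422). Scn4b, an accessory subunit of sodium channels, was at 60.7, 62.9 and 66.1 FPKM in WT and at 48.3, 44.4 and 48.6 FPKM in KO (-0.42 ± 0.0864, adjusted p = 0.488). The spread inside each group was small beside the gap between them in both genes. Adam23, a neuronal cell surface protein that binds LGI proteins, was at 37.4, 39.2 and 40.3 FPKM in WT and at 28.1, 26.8 and 31.1 FPKM in KO (-0.44 ± 0.0836). Others of the 15 were Ntng1, a membrane-bound netrin of axons (-0.50), Iqsec3, an exchange factor at inhibitory synapses (-0.52), the guidance cue Sema3e (-0.59), the neuronal calcium sensor Ncs1 (-0.34) and Stac2, a partner of voltage-gated calcium channels (-0.47). The rest were Decr2, Spsb3, Fam57b, Aox3, Riok2, Samd12 and Telo2.

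The 15 higher genes with the smallest p were of mixed kinds. Stc2, a secreted glycoprotein of the stanniocalcin family, was at 1.93, 1.61 and 2.01 FPKM in WT and at 2.92, 3.18 and 2.999 FPKM in KO (0.59 ± 0.0971, adjusted p = 0.377). Lbp, the carrier protein of bacterial lipopolysaccharide, was at 33.4, 32.4 and 38.2 FPKM in WT and at 44.2, 48.8 and 48.9 FPKM in KO (0.45 ± 0.092, adjusted p = 0.488). F2r, a thrombin receptor, was at 21.4, 18.7 and 20.7 FPKM in WT and at 27.5, 27.7 and 25.6 FPKM in KO (0.40 ± 0.0956). All 3 had groups that did not overlap, which the rule for naming them required. Also among the 15 were Nthl1, a glycosylase of base excision repair (0.78), Hs3st6, a heparan sulfate sulfotransferase (0.77), the membrane palmitoyltransferase Zdhhc12 (0.40), Procr, the endothelial receptor of protein C (0.66), Ifitm2 (0.31), the cell cycle kinase Cdk4 (0.26) and the mast cell tryptase Tpsab1 (2.25). Tpsab1 was at 0.170, 0.196 and 0.257 FPKM in WT and at 8.74, 1.79 and 1.29 FPKM in KO, so most of its difference came from F5.

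Differences of at least 1 in size on the log2 scale were found for 293 genes, of which 225 were microRNA or small nucleolar RNA genes. Among longer genes most of the largest differences had wide errors. Elovl3, a fatty acid elongase, was at 0.342, 0 and 0.124 FPKM in WT and at 4.54, 2.99 and 0.425 FPKM in KO (1.98 ± 1.24, adjusted p = 0.963). Masp2, a protease of the lectin pathway of complement, was at 1.36, 3.16 and 2.17 FPKM in WT and at 0.441, 0.398 and 0.168 FPKM in KO (-1.67 ± 0.465, adjusted p = 0.865). Fabp7, a fatty acid binding protein of glial cells, was at 103.1, 64.2 and 60.7 FPKM in WT and at 57.1, 43.5 and 25.4 FPKM in KO (-0.88 ± 0.3, adjusted p = 0.912). In all 3 the groups stood apart, as the naming rule required, and in Fabp7 F1 was the highest and F27 the lowest library. Apoo-ps, at -2.25 ± 0.93 (adjusted p = 0.962), is a pseudogene whose reads may be shared with its parent gene, and its level is uncertain.

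Interferons are secreted in response to viral or self nucleic acids and act through the receptor-bound JAK kinases and transcription factors of the STAT and IRF families on a common set of antiviral genes. Nearly every gene of this set lay above 0. Of 52 genes on the list, 51 lay above 0, and the median difference was 0.40 against -0.004 over all genes. In this list 27 were higher (51.9%, against 2.21% of all genes) and 0 were lower. For 23 of the 52 the KO values lay wholly above WT, a larger share than the 4.1% of all genes. The 1 gene below 0 was Ifi27, at 367, 311 and 302 FPKM in WT and at 272, 339 and 179 FPKM in KO (-0.36 ± 0.29). By library, the mean level of the list relative to the WT mean was -0.13, -0.06 and 0.19 in F1, F10 and F12 and 0.38, 0.53 and 0.46 in F5, F6 and F27. No library of one group reached the other.

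Among transcription factors of the pathway, Irf9 was at 18.6, 19.03 and 19.3 FPKM in WT and at 21.1, 27.4 and 22.9 FPKM in KO (0.31 ± 0.1, adjusted p = 0.912). Stat2 (0.40 ± 0.124, adjusted p = 0.912) and Irf7, which amplifies the response (0.65 ± 0.252, adjusted p = 0.94), were higher too, and KO libraries lay above WT in Irf9 and Irf7. Among effectors, Oas1a, which senses double-stranded RNA, was at 2.55, 2.57 and 2.54 FPKM in WT and at 4.40, 4.91 and 4.52 FPKM in KO (0.74 ± 0.18, adjusted p = 0.681). Gbp2, a guanylate binding protein active against intracellular pathogens, was at 13.2, 13.2 and 14.9 FPKM in WT and at 17.2, 23.7 and 20.9 FPKM in KO (0.55 ± 0.17, adjusted p = 0.912). These effectors had narrow WT groups. The largest differences were in genes with wide groups: Ifit3, which binds foreign RNA, was at 14.8, 18.8 and 27.1 FPKM in WT and at 22.4, 67.7 and 66.3 FPKM in KO (1.23 ± 0.51, adjusted p = 0.962), and Mx1, a dynamin-like antiviral GTPase, was at 1.10, 2.91 and 4.08 FPKM in WT and at 3.92, 5.89 and 11.96 FPKM in KO (adjusted p = 0.962). In both, F5 was the lowest KO library and lay below F12. Isg15, a ubiquitin-like modifier, was at 18.5, 23.8 and 31.6 FPKM in WT and at 34.6, 56.6 and 37.9 FPKM in KO (0.79 ± 0.34, adjusted p = 0.962).

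The median of the interferon response list stayed above 0 when any of the 6 libraries was left out, between 0.358 without F10 and 0.485 without F12, but fewer than 27 of its genes were higher in each of these fits. The number was 10 without F1, 16 without F10, 8 without F6 and 12 without F27, and 16 with the Xist level as a covariate. Without both F5 and F12, the libraries with the most marrow genes, 27 were higher and the median was 0.488.

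Promoters of 4 of these interferon response genes are shown because each holds a sequence feature that is more frequent in the list than among all promoters. Each is the 250 bases before the gene's start in RefSeq (GRCm38.p6), in the gene's direction, at chr5:120907526-120907775 (minus strand) for Oas1a, chr3:142620413-142620662 (plus) for Gbp2, chr19:34583279-34583528 (plus) for Ifit3 and chr4:156200819-156201068 (minus) for Isg15. Capitals mark each match, on either strand, to 2 copies of GAAA held apart by any 2 bases, the core of the element that interferon-activated factors bind, and matches may overlap each other.
Oas1a: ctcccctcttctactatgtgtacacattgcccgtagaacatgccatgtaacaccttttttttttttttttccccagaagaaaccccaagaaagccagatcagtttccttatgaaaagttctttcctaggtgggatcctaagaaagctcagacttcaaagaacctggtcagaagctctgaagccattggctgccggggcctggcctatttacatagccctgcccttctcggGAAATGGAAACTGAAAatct
Gbp2: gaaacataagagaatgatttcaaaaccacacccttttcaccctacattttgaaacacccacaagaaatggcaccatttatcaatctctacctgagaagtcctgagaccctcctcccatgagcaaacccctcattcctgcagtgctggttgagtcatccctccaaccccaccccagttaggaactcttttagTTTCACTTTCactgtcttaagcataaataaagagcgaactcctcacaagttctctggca
Ifit3: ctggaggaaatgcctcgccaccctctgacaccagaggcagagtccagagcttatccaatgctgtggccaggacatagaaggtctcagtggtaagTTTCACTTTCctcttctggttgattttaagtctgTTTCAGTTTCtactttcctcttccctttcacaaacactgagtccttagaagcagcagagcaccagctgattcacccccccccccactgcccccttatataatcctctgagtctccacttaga
Isg15: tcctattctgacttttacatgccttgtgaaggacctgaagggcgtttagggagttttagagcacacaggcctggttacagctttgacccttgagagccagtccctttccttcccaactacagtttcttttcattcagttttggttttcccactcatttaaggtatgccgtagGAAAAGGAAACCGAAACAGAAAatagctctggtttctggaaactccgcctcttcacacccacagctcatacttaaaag
The motif was found in 14 of the 39 interferon response genes that had a promoter in the RefSeq table (35.9%), in 978 of all 32851 promoters (2.98%) and in 373 of the 11778 tested genes with a promoter (3.17%). The median difference between KO and WT was 0.61 for the 14 genes with it and 0.24 for the rest of the 39. A match is a description of the letters and not of bound factors.

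Genes of the proteasome and antigen presentation, part of which interferon also induces, were less uniform. Of 21 genes of MHC class I presentation, 3 were higher (14.3%, against 2.21% of all genes). They were the immunoproteasome gene Psmb10, the proteasome activator Psme1 and the peptide transporter Tap2. The class I gene H2-M3 was the 1 lower gene (4.76%, against 2.97% of all genes), and the median was 0.10. Tap2 and H2-M3 lie on the chromosome of Dusp1, at 7.696 and 10.762 Mb from it. Other class I genes lie near them, among them H2-K1 at 7.488 Mb and H2-D1 at 8.755 Mb. The part of this position in their values was not tested. Without F10 the median of MHC class I presentation was 0.0292 with 0 higher, and it was 0.0553 without F5, 0.0632 without F6, 0.1776 without F12 and 0.1855 without F27, with 1 higher without each of F1, F5 and F6. Of 21 complement genes 1 was higher (4.76%, against 2.21% of all genes), with a median of 0.21. Serping1, the inhibitor of the first complement protease, was at 196, 184 and 199 FPKM in WT and at 215, 240 and 227 FPKM in KO (0.23 ± 0.0887, adjusted p = 0.94).

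**Figure D3:**
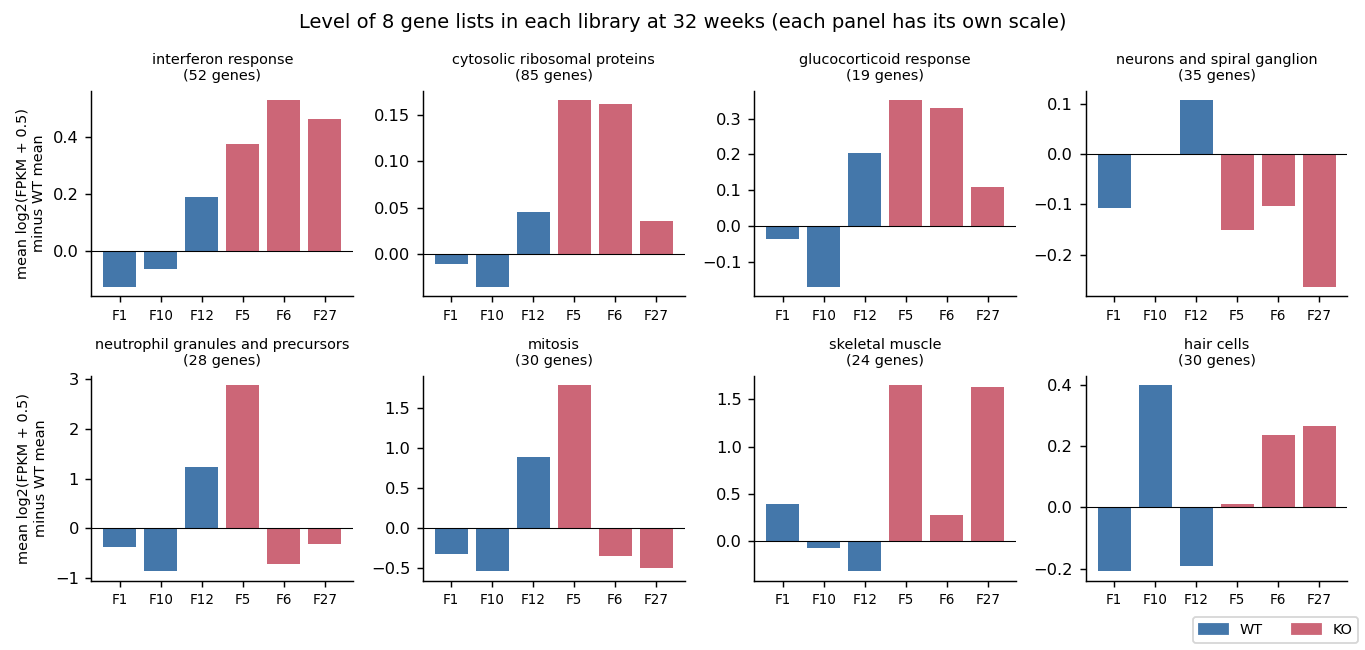
Mean log2(FPKM + 0.5) of 8 gene lists in each of the 6 libraries, relative to the WT mean, as bars from 0 (WT F1, F10 and F12, KO F5, F6 and F27). Interferon response genes were at 0.38 to 0.53 in KO against -0.13 to 0.19 in WT, whereas neuronal genes overlapped between groups and neutrophil and mitosis genes were highest in F5.

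Most genes of neurons and the spiral ganglion lay below 0, and a minority of them were lower by the test. Of 35 on the list, 31 lay below 0, the median was -0.17, 9 were lower (25.7%, against 2.97% of all genes) and 0 were higher. For 9 of the 35 the KO values lay wholly below WT, a larger share than the 6.18% of all genes. Slc17a7, the glutamate transporter that fills synaptic vesicles (VGLUT1), was at 78.4, 83.0 and 78.5 FPKM in WT and at 55.9, 60.4 and 66.2 FPKM in KO (-0.39 ± 0.09, adjusted p = 0.571). Scn8a, the sodium channel of nodes of Ranvier, was at 13.1, 16.2 and 16.7 FPKM in WT and at 11.2, 10.03 and 12.7 FPKM in KO (-0.42 ± 0.119, adjusted p = 0.894). Both had all KO libraries below all WT libraries.

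Other lower genes of the neuronal list were the potassium channels Kcnc1 (-0.39), Kcna2 (-0.30) and Kcna1 (-0.25), the RNA binding protein Elavl4 and the neuronal enolase Eno2. The 2 most abundant, the calcium binding protein Calb2 and the vesicle fusion protein Snap25, overlapped between groups, and Snap25 was at 539, 554 and 574 FPKM in WT and at 457, 530 and 562 FPKM in KO. By library, the list was at -0.11, 0.00 and 0.11 in WT and at -0.15, -0.10 and -0.26 in KO, so F6 lay level with F1. The median ran from -0.23 without F1 to -0.128 without F12 when a library was left out, 5 genes were lower without F10 and 5 without F5, and without both F5 and F12 2 were lower with a median of -0.104.

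Lists close to the neuronal one had smaller medians. Of 29 neurotransmitter receptor genes 1 was lower (3.45%, against 2.97% of all genes), the metabotropic glutamate receptor Grm7 (-0.29 ± 0.102, adjusted p = 0.93). The median was -0.14, and 6 of the 29 had KO values wholly below WT, a larger share than the 6.18% of all genes. Of 30 genes of synaptic vesicle release 0 were lower and 24 lay below 0, with a median of -0.10. Of 20 markers of central glia 1 was lower (5%, against 2.97% of all genes), with a median of -0.14. The oligodendrocyte factor Olig1 was at 5.22, 5.05 and 4.14 FPKM in WT and at 2.76, 3.10 and 3.53 FPKM in KO (-0.55 ± 0.202, adjusted p = 0.94).

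Hair cell genes showed no difference that could be told from the spread. The median of the 30 tested hair cell genes was 0.21, and none had a p under 0.05. With a library left out, the median of hair cells was 0.0675 without F1, 0.1085 without F12, 0.1362 without F6 and 0.4219 without F10, where 8 were higher. Otof, which triggers transmitter release from inner hair cells, was at 7.26, 14.4 and 7.09 FPKM in WT and at 8.51, 11.4 and 11.96 FPKM in KO (adjusted p = 0.989). Slc26a5, the prestin motor protein of outer hair cells, was at 1.68, 1.72 and 1.73 FPKM in WT and at 1.35, 1.04 and 2.07 FPKM in KO (adjusted p = 0.979), so KO lay on both sides of WT. Of 20 genes of supporting cells and the sensory epithelium 9 lay above 0 and 11 below, with a median of -0.03. The 1 lower gene (5%, against 2.97% of all genes) was Prox1, a factor of supporting cells and of lymphatic vessels. Prox1 was at 3.76, 4.18 and 3.63 FPKM in WT and at 2.65, 1.69 and 3.36 FPKM in KO (-0.54 ± 0.181, adjusted p = 0.912).

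Most genes of cytosolic ribosomal proteins lay slightly above 0, and a minority were higher by the test. Of 85, 77 lay above 0 and the median was 0.12. In this list 18 were higher (21.2%, against 2.21% of all genes and 5.63% of genes at 100 FPKM or more). Only 1, the retrogene Rps27rt, was lower (1.18%, against 2.97% of all genes). KO values lay wholly above WT in 27 of the 85, a larger share than the 4.1% of all genes. Rps26 was at 712, 648 and 748 FPKM in WT and at 889, 941 and 938 FPKM in KO (0.40 ± 0.0872, adjusted p = 0.557), and Rpl35 was at 800, 801 and 877 FPKM in WT and at 972, 1007 and 992 FPKM in KO (0.26 ± 0.0703, adjusted p = 0.802). The most abundant of them, Rps27 and Rplp1, overlapped between groups. Many of these genes have near-identical processed copies in the genome, so their levels are uncertain. Of the genes of cytosolic ribosomal proteins 11 were higher without F1, 10 without F10 and 4 without F6, 10 without the filter on low values, 10 with the Xist level as a covariate and 8 with the 6 libraries alone. After quantile scaling their median was 0.041, with 2 higher and 2 lower.

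Glucocorticoids act through a nuclear receptor on a set of genes to which Dusp1 belongs. Of the 19 glucocorticoid response genes listed without Dusp1, 14 lay above 0, the median was 0.27 and 4 were higher (21.1%, against 2.21% of all genes). Per1, a clock gene that the receptor also induces, was at 22.6, 18.01 and 20.8 FPKM in WT and at 30.6, 36.9 and 30.4 FPKM in KO (0.66 ± 0.13, adjusted p = 0.422). Fkbp5, a co-chaperone of the receptor, was at 8.78, 8.23 and 11.6 FPKM in WT and at 15.3, 18.8 and 15.3 FPKM in KO (0.77 ± 0.24, adjusted p = 0.912). KO lay above WT in every library for both. Klf9 was at 41.6, 42.4 and 44.4 FPKM in WT and at 48.8, 51.4 and 52.6 FPKM in KO (0.25 ± 0.0911, adjusted p = 0.94), and Cebpd was higher by 0.57 ± 0.243 (adjusted p = 0.962), with F27 among the WT values. The median of the list stayed between 0.196 and 0.299 with any 1 of the libraries left out.

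Of 19 circadian clock genes 3 were higher (15.8%, against 2.21% of all genes), Per1, Per2 (0.56 ± 0.197) and Ciart (0.74 ± 0.317). The median was 0.07, and 1 gene was lower (5.26%, against 2.97% of all genes), Npas2 (-0.58 ± 0.229). Ciart, a repressor of the clock, was at 9.94, 6.61 and 9.28 FPKM in WT and at 7.91, 21.3 and 18.03 FPKM in KO, and F5 lay inside the WT range. Of the circadian clock list 7 were higher and 3 lower without F5, 5 higher and 2 lower without F1, and 1 higher without each of F6, F10, F12 and F27. The median of the circadian clock was 0.2464 without F5, 0.1486 without F1, between 0.0191 and 0.0318 without F6, F12 or F10, and -0.0134 without F27. No source used here gives the time of day of sampling, and its part in these values was not tested.

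Among components of MAP kinase signalling, the pathway that DUSP1 acts on, 1 phosphatase and 3 kinases had an unadjusted p under 0.05. Of 11 MAP kinase phosphatase genes 1 was higher, Dusp1 itself (9.09%, against 2.21% of all genes), and the median was -0.05. Of 28 genes of MAP kinases and the kinases above them the median was 0.01 and 3 were lower (10.7%, against 2.97% of all genes): Map3k7 (TAK1), which relays inflammatory signals to p38 and JNK, was at 19.2, 18.2 and 18.6 FPKM in WT and at 16.2, 13.6 and 15.8 FPKM in KO (-0.29 ± 0.0744, adjusted p = 0.748), and the JNK genes Mapk10 and Mapk8 were lower by -0.22 and -0.21. Mapk14, the p38 kinase, was at 28.6, 26.9 and 31.0 FPKM in WT and at 38.3, 28.6 and 26.96 FPKM in KO (adjusted p = 0.989). None of 26 immediate early genes, which these kinases induce, had a p under 0.05, and Fos was at 3.15, 4.47 and 3.79 FPKM in WT and at 4.67, 4.75 and 4.30 FPKM in KO (adjusted p = 0.992). Of the MAP kinases and upstream kinases 1 was lower without F6, 1 without F12 and 2 without F1 or F5, and RNA levels do not show phosphorylation.

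The study asked about redox balance, and the share of glutathione metabolism genes that were higher at this age was near that of all genes. Of 38 genes 1 was higher (2.63%, against 2.21% of all genes), the peptidase Anpep, at 15.3, 17.9 and 17.7 FPKM in WT and 18.7, 19.1 and 19.1 FPKM in KO (0.16 ± 0.0658, adjusted p = 0.962), and the median of glutathione metabolism was 0.08, or 0.0102 without F6 and 0.0406 without F10. Gpx1, the most widely expressed glutathione peroxidase, was at 176, 160 and 256 FPKM in WT and at 351, 207 and 154 FPKM in KO (adjusted p = 0.987). Gsr, which regenerates glutathione, was at 19.3, 19.6 and 26.1 FPKM in WT and at 47.4, 19.8 and 18.3 FPKM in KO (adjusted p = 0.983). In both genes F12 was the highest WT and F5 the highest KO library, the same libraries that led in neutrophil genes. Nfe2l2 (NRF2), the main inducer of antioxidant genes, was at 42.3, 41.3 and 45.9 FPKM in WT and at 46.2, 49.4 and 48.5 FPKM in KO (0.15 ± 0.0595, adjusted p = 0.94), with a median of 0.06 over 24 genes of its response. Of 78 oxidative phosphorylation genes 39 lay above 0 and 39 below, with 0 higher, 0 lower and a median of 0.00. Of 23 genes of mitochondrial biogenesis 1 was lower (4.35%, against 2.97% of all genes), with a median of -0.03. It was the nuclear receptor Esrrg (-0.31 ± 0.114, adjusted p = 0.94). Of 22 genes of the unfolded protein response 2 were higher (9.09%, against 2.21% of all genes), with a median of 0.08. Xbp1, a factor of this response, was at 59.8, 55.8 and 52.7 FPKM in WT and at 64.4, 71.4 and 74.5 FPKM in KO (0.32 ± 0.0935, adjusted p = 0.912). Of 22 cholesterol synthesis genes 3 were lower (13.6%, against 2.97% of all genes), with a median of -0.05. Insig1, the sterol sensor partner, was at 79.6, 69.0 and 70.4 FPKM in WT and at 50.1, 60.4 and 57.8 FPKM in KO (-0.38 ± 0.141, adjusted p = 0.94).

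Markers of cells that share the bony cochlea were high in single libraries. The 28 neutrophil genes had a median of 0.62 and 27 lay above 0, but none had a p under 0.05, and the median was -0.47 without F5 and 1.39 without F6. S100a8, the most abundant granulocyte alarmin, was at 427, 271 and 1998 FPKM in WT and at 7426, 410 and 487 FPKM in KO. F5 stood far above all others and F12 above the rest. All 30 mitosis genes lay above 0 with a median of 0.31, and the median was -0.43 without F5. Macrophage genes had a median of 0.20, which was -0.04 without F5, and summed to 805.6 to 1238 FPKM in WT and 788.5 to 2119 FPKM in KO. Their part in the differences of other genes was not tested beyond leaving out F5 and F12.

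Skeletal muscle genes were read in all 6 libraries and summed to 342.8 to 386.4 FPKM in WT and to 438.9 to 721 FPKM in KO. Of 24, 22 lay above 0 with a median of 1.06, but 1 was higher (4.17%, against 2.21% of all genes), the troponin Tnnt1 (0.33, adjusted p = 0.962). Acta1, skeletal actin, was at 9.32, 1.47 and 0.895 FPKM in WT and at 39.9, 3.42 and 23.8 FPKM in KO, so F5 and F27 were high and F6 lay within WT. The list was at 1.65 in F5 and 1.63 in F27, 0.39 in F1 and 0.28 in F6.

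**Figure D4:**
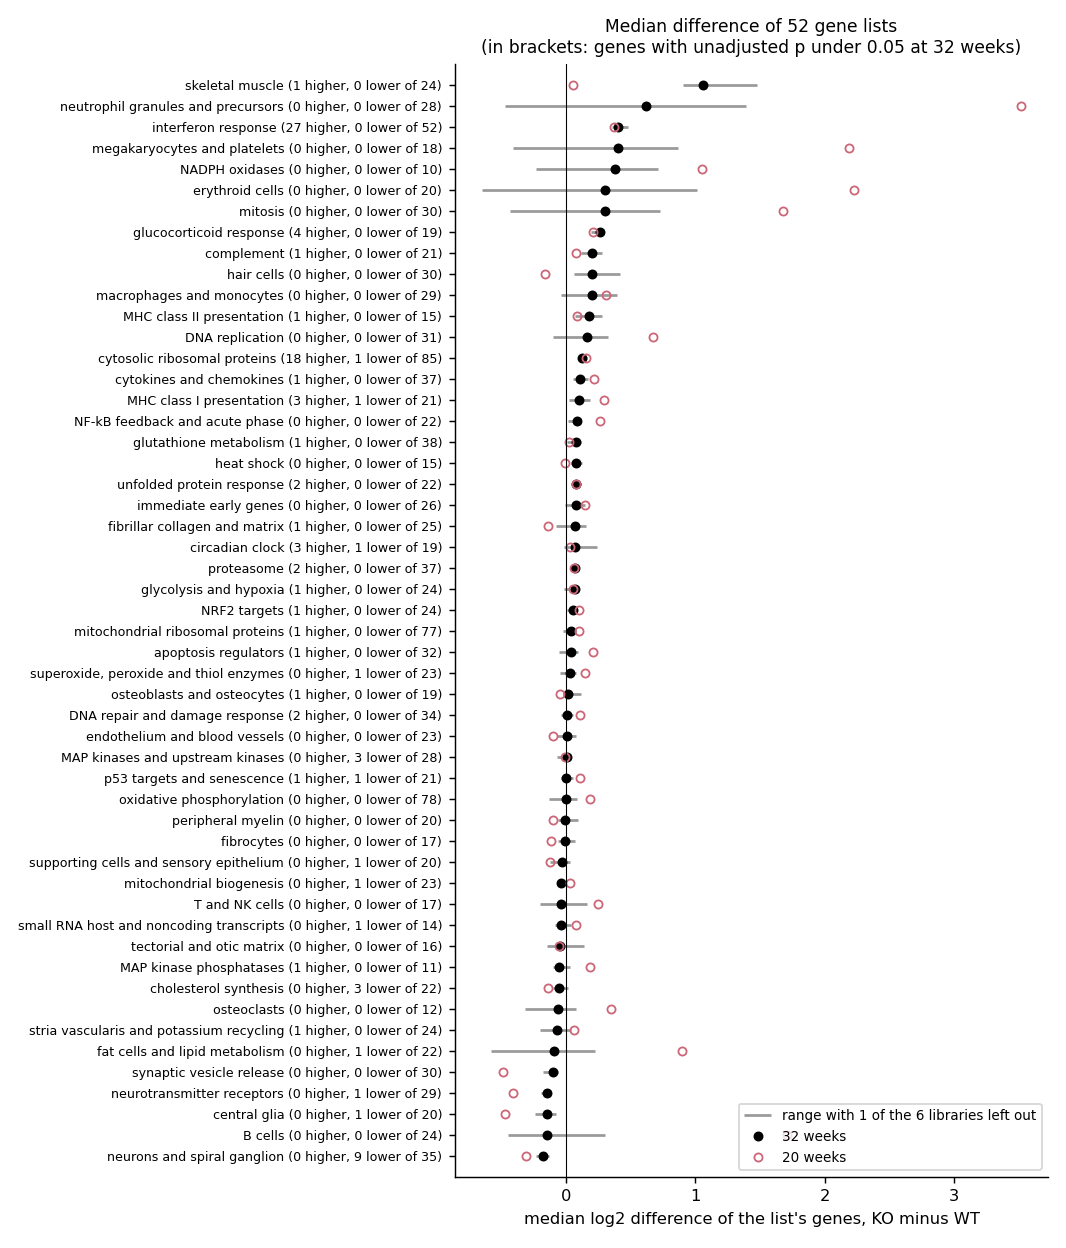
Median difference KO minus WT (log2 scale, horizontal axis) of 52 gene lists at 32 weeks (filled points) and 20 weeks (open points), with a line over the range of the 32-week median when 1 of the 6 libraries is left out. The interferon response list lay at 0.40 and 0.37 at the 2 ages, the neuronal list at -0.17 and -0.30, and the neutrophil list at 0.62 with a line that crosses 0 and at 3.52 at 20 weeks.

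Near Dusp1 itself a larger share of genes differed than elsewhere, as a description without a test. Of 219 tested genes within 5 Mb of it on chromosome 17, 14 were higher and 24 lower, 17.4% together, against 5% of the 16055 other genes, and 46 (21%) had groups that did not overlap, against 10.1%. Within 10 Mb the share with a p under 0.05 was 11.7%, against 5% of the other genes, and within 20 Mb it was 10.6%, against 4.98%. Over all of chromosome 17 this share was 8.75%, and on the other chromosomes with more than 5 genes it lay between 3.16 and 6.3%. Of the named genes, Decr2, Spsb3, Telo2, Nthl1, Hs3st6, Tpsab1, Fkbp5 and Mapk14 lie within the window of 5 Mb. Hs3st6 was at 14.1, 17.2 and 13.6 FPKM in WT and at 25.0, 26.6 and 25.4 FPKM in KO (adjusted p = 0.422), Decr2, a peroxisomal enzyme of fatty acid oxidation, was at 29.6, 26.6 and 25.4 FPKM in WT and at 15.6, 17.8 and 18.2 FPKM in KO (-0.65 ± 0.107, adjusted p = 0.377), and Nthl1 was at 3.06, 3.66 and 3.97 FPKM in WT and at 5.49, 7.06 and 6.88 FPKM in KO (adjusted p = 0.422). All 3 were separated fully by genotype. Meiob, a meiosis gene at very low level, was at 0.164, 0.132 and 0.196 FPKM in WT and at 0.838, 1.18 and 1.77 FPKM in KO (1.37 ± 0.22, adjusted p = 0.377). Of the 12 genes nearest to Dusp1, the one with a p under 0.05 was Ergic1, a gene of transport between endoplasmic reticulum and Golgi (-0.20 ± 0.0489, adjusted p = 0.62). The sequence of the strains around the disrupted gene was not examined here, and its part was not tested.

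**Figure D5:**
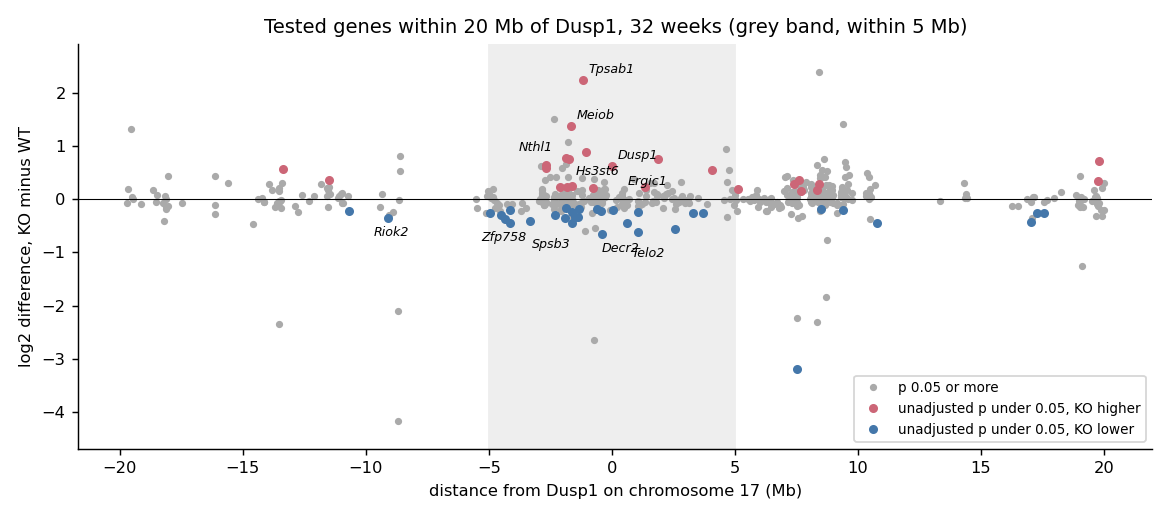
Difference KO minus WT (log2 scale, vertical axis) at 32 weeks for genes within 20 Mb of Dusp1 on chromosome 17, against distance from its nearer end in Mb (horizontal axis), with a grey band of 5 Mb to each side and genes at an unadjusted p under 0.05 in colour. Inside the band 38 of 219 genes had such a p.

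The 20-week libraries, 3 WT and 3 KO of the same genotypes that share no animal with these, allow the comparison to be read at both ages. Of the 842 genes at 32 weeks, 278 (33%) had an unadjusted p under 0.05 in the same direction at 20 weeks and 22 in the opposite one, and 685 (81.4%) had the same sign, against 62.9% of all genes. Of the 2955 genes at 20 weeks, 9.41% had such a p in the same direction at 32 weeks. In the interferon response list 19 genes were higher at 20 weeks with a median of 0.37, and in the neuronal list 18 were lower with a median of -0.30. The lists of marrow cells had larger medians at 20 weeks, 3.52 for neutrophils and 1.71 for B cells, than at 32 weeks, when they were 0.62 and -0.15. All libraries of both ages entered 1 fit, so the ages share an estimate of the spread.

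The difference between ages was tested for each gene as the KO minus WT difference at 32 weeks less that at 20 weeks. It passed the correction for 1 gene, Mir8116, which is 0.00614% of those tested, and 760 genes had an unadjusted p under 0.05, 490 above 0 and 270 below. Mir8116 (chr5:137735008-137735104, mm9, plus strand, 97 bases), inside an intron of the acetylcholinesterase gene Ache, was at 22.4, 12.2 and 12.7 FPKM in WT and at 74.6, 52.9 and 22.6 FPKM in KO at 32 weeks (1.53 ± 0.37, adjusted p = 0.624). The groups stood apart by a narrow margin. At 20 weeks it was listed at 0 FPKM in all 3 WT and was at 36.2, 39.7 and 46.5 FPKM in KO. Ache did not differ by more than its error at 32 weeks (0.05 ± 0.149, adjusted p = 0.997). The 8 longer genes with the smallest p for this difference did not pass the correction (adjusted p of 0.848 or more). Rgs17 (0.84), Cpxm1 (0.58), F2r (0.725), Ddah1 (0.48), Itm2a (0.58), Fbln1 (0.56) and Stc2 (0.66 ± 0.137, adjusted p = 0.876) were above 0, and Mgmt (-0.93) was below. F2r was lower in KO at 20 weeks (-0.32 ± 0.0956) and higher at 32 weeks. For Stc2 the KO values at 20 weeks, 2.07 to 2.09 FPKM, were below the WT values of 2.11 to 2.31 FPKM. That difference was within its error (-0.07 ± 0.0971).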

How the data were processed

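Polyadenylated RNA of mouse cochleae was measured in 12 libraries, of which the 6 from 32-week-old animals are compared here. Per the labels and the study's methods, the authors made stranded libraries, sequenced single ends of 50 bases, checked reads with FastQC 0.10.1, used SAMtools 0.1.19 and Bowtie 1.0.0 within TopHat2 2.0.10 to align them to mm9 and obtained FPKM with Cufflinks 2.2.1. The deposited FPKM table, whose values the authors scaled to transcript length and library size, had lost decimal points. They were put back first, for each gene and group, as the only placing whose mean gives the authors' group FPKM within a relative tolerance of 2e-05. Of 95804 gene and group pairs 95795 had 1 placing and 9 had none, 55.36% of values were changed, and 4 genes (Atxn7l1, Gm13308, Hba-a1 and Mecom) were left out. The method returned 5000 of 5000 simulated sets. The authors' Cuffdiff comparisons (fold changes and p-values) and their gene set enrichment results were not used.

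Genes that averaged 0.5 FPKM or more across the 12 libraries were taken as log2(FPKM + 0.5), which understates differences of low genes, into 1 limma fit of the 4 group means with a variance trend. P-values were adjusted by the Benjamini-Hochberg method across every tested gene and called under 0.05. The fit was tested on simulated data. Read depth is unknown, so no counting error is given. Lists are described by counts and medians only, with no test. The comparison and the 53 gene lists were chosen with earlier results of these data known. Genes named first are the called genes, Dusp1, the 15 higher and 15 lower of smallest p and the 8 of each direction of largest difference, averaging 1 FPKM or more, with groups that do not overlap, and no small RNA, Gm, Rik or sex-linked name. In each list up to 4 members of smallest p and the 2 most abundant were named, and for the age difference the 8 of smallest p, and all other list members and neighbouring genes in the text were picked after their values were seen. Elements in promoters were searched on both strands of 250 bases. Alternatives were another pseudocount, filter, scaling, trend, weights or covariate, the 6 libraries alone and each library left out, and without small RNA names and without F5 and F12, chosen after the data were seen. R 4.3.3, limma 3.58.1, Python 3.11.15, NumPy 2.4.6, pandas 2.3.3 and Matplotlib 3.10.9 were used. Some genes of the lists are not reported here by name, and they remain in the counts and medians.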

Additional observations from a re-analysis of the deposited data

Results flagged for a closer look

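Mir8116 was singled out because its genotype difference differed between the ages by a test of that difference, -4.83 ± 0.524 on the log2(FPKM + 0.5) scale (limma adjusted p = 0.0489). The KO libraries were above the WT libraries at both ages, and the size rests on WT values listed at 0 FPKM at 20 weeks, so it depends on the pseudocount. The test passed its threshold in 9 of 22 other settings. Over all 22, the difference lay between -7.11 and -3.87 and the limma adjusted p between 0.00124 and 0.32.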

How the results depend on the processing

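Of 24 alternative settings, 22 were planned and 2 were added after seeing the data. Gm10653 and Mir7067 were called in each setting that tested them, with differences of 1.77 to 2.02 and 5.98 to 9.28 and adjusted p of at most 0.00924. Of the other genes named by p, size or position, the 48 with an unadjusted limma p under 0.05 were followed. All had groups that did not overlap, so leaving out a library could not turn their direction. They kept it, and stayed uncalled, in all 1150 values. Named genes with a larger p, and those named from a list only, were not followed. Dusp1 stayed at 0.49 to 0.69 with adjusted p between 0.695 and 1. Called genes numbered 4 with the 6 libraries alone, 5 without both F5 and F12, 0 without microRNA, small nucleolar RNA, Gm and Rik names (where 317 had KO higher and 407 KO lower before adjustment) and 2 to 6 with a library left out, the highest without F10. All but 1 of the additional calls, BC002163, were small RNA genes. Genes higher in KO numbered 219 to 530 with a library left out and genes lower 341 to 737, and 296 were lower without F5 and F12. Genes whose difference changed with age numbered 2 at a pseudocount of 0.1 and 0 at 1, 0 without the filter, with median-of-ratios scaling, without the variance trend, with Xist as a covariate and without small RNA names, 4 without F5 and F12 and 0 to 4 with a library left out. Of 1248 list medians, 18 in 11 lists moved by more than the spread between replicates. The sign of a list's median differed from that reported in 90 of the 1248, over 32 lists. Without F5 it was -0.47 for neutrophils, -0.43 for mitosis and -0.65 for erythroid cells. No called or followed gene reversed. Median-of-ratios scaling put the median difference of all genes at 0.0028, against -0.004 as deposited. Depth is unknown, and 5345 of 16275 genes had a standard error under 0.1, so small differences in the others could not be seen. No paired analysis was possible because the groups share no replicate numbers.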
